A study of Sus scrofa with 6 samples.

Results

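Slow (type I) muscle fibres are built from their own set of contractile proteins and their own calcium pump, and 10 genes of that set were followed in the longissimus dorsi (LD) muscle of Laiwu pigs: MYH7, MYL2, MYL3, TNNT1, TNNI1, TNNC1, TPM3, ATP2A2, MYOZ2 and CASQ2. They were found by gene symbol in the deposited table of transcripts, where they made up 10 of 31908 annotated genes and 48 of 83119 transcripts. RNA was sequenced from the LD muscle of 6 castrated males, of which 3 had an extremely high intramuscular fat (IMF) content (the S-H group, LW63, LW70 and LW119) and 3 an extremely low one (the S-L group, LW82, LW88 and LW90). The Laiwu pig is a Chinese breed known for marbled meat, and the labels name no treatment and no age. Each library was made from 1 pig, after removal of ribosomal RNA, and the question here was whether slow-fibre genes differed between high and low IMF.

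In a sarcomere, myosin heavy chains pull on actin filaments, light chains steady and tune the myosin neck, and the troponin complex with tropomyosin opens the filament to myosin when calcium arrives. Calcium is stored in the sarcoplasmic reticulum, bound by calsequestrin, and is pumped back by a SERCA pump after each contraction. Slow and fast fibres use different genes for most of these parts, and slow fibres are the more oxidative and fatigue-resistant type. The LD of the pig is a mainly fast muscle that holds slow fibres in clusters. In bulk muscle, fewer slow fibres and less slow-fibre RNA per fibre cannot be told apart.

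Values are FPKM, fragment counts scaled by transcript length and by library total, summed over the transcripts of a gene. The summed FPKM of a library ran from 638536 in LW119 to 846661 in LW82, and no pair of libraries was identical. Over all 16333 genes tested with limma, the median log2 fold change of S-H against S-L was 0.19, so that most genes leaned towards S-H before any rescaling. Division by median-ratio size factors, which align the typical gene level, brought this median to 0.0061 and changed the genes past the thresholds from 152 higher and 52 lower in S-H to 95 and 90. Skeletal muscle markers were abundant, with a summed level of 5187 to 9130 FPKM in S-H and 5378 to 7197 FPKM in S-L over the 4 of 8 listed genes found (ACTA1, CKM, DES and NEB). These 4 did not move together. The log2 fold change was -0.97 for ACTA1 and -0.39 for NEB, against 0.21 for CKM and 0.81 for DES, and none passed the thresholds. In NEB every S-H pig was below every S-L pig, an order that 2.06% of all genes had. Of the 3 heart markers found, NPPB was listed at 0 in every pig, and the sum was at most 1.53 FPKM, apart from the heart myosin locus that the table lists under MYH7.

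All 10 slow-fibre genes were above 0 in all 6 pigs, and their mean level per length spanned more than 3 orders of magnitude. From high to low, the means over the 6 pigs were 3415 FPKM for MYL2, 3325 for TNNC1, 745 for MYL3, 489.8 for TPM3, 433 for TNNI1, 421 for TNNT1, 338 for MYH7, 152 for ATP2A2, 35.0 for MYOZ2 and 1.47 for CASQ2. The ranges over the pigs did not overlap between TNNC1 and MYL3 or between MYOZ2 and CASQ2, and all other neighbours in this order overlapped.

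**Figure D1:**
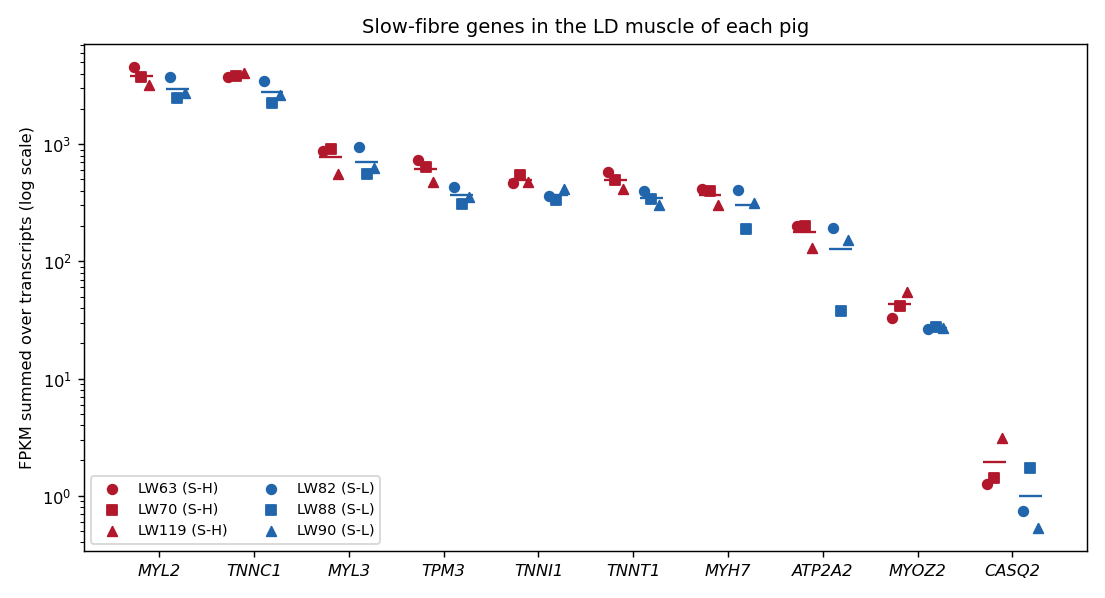
FPKM of each slow-fibre gene (log axis, summed over its transcripts) in the 3 S-H pigs (red) and the 3 S-L pigs (blue), with horizontal lines at the group means. LW88 was the lowest pig in 7 of the 10 genes, and the groups did not overlap in TNNT1, TNNI1, TNNC1, TPM3 and MYOZ2.

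Every one of the 10 genes had a positive log2 fold change of S-H against S-L, from 0.14 for MYL3 to 0.93 for CASQ2, although that of MYL3 turned to -0.066 with size factors. None passed the study's thresholds in limma, p below 0.01 with a log2 fold change of 1 or more in size, where 1.25% of all tested genes did (0.931% higher and 0.318% lower in S-H). TPM3 and MYOZ2 reached an unadjusted p below 0.05, 2 of 10 genes, against 7.45% of all genes in either direction and 6.11% with a higher level in S-H. None had a Benjamini-Hochberg adjusted p below 0.05, as was so for all 16333 genes. Over all genes 70.6% had a positive log2 fold change. The S-H pigs all lay above the S-L pigs in 5 of the 10 genes, against 11.9% of all genes. The median log2 fold change of the 10 genes was 0.51, beside 0.19 over all genes.

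With size factors these figures were smaller. The median of the 10 genes was then 0.31 beside 0.0061 over all genes, and 9 of 10 genes had a positive value against 50.7% of all genes. No slow-fibre gene then kept every S-H pig above every S-L pig, where 5.99% of all genes did, and none reached an unadjusted limma p below 0.05, where 6.38% did. Again none passed the thresholds, against 1.13% of all genes.

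**Figure D2:**
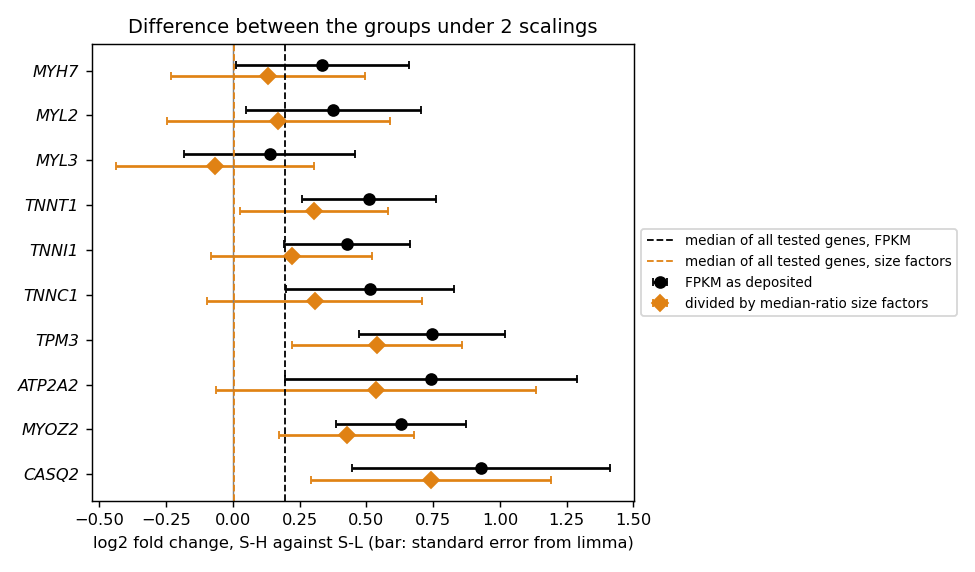
log2 fold change of S-H against S-L for each gene with its standard error from limma, on FPKM as deposited (black) and after division by median-ratio size factors (orange). Dashed lines mark the median of all tested genes at 0.19 and 0.0061, and MYL3 is the gene that changed sign between the scalings.

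MYH7 encodes the slow (beta) myosin heavy chain, the motor that defines a type I fibre (ENSSSCG00000002029, chromosome 7, 75650445 to 75709232 on Sscrofa11.1). Its level was 413, 398 and 301 FPKM in LW63, LW70 and LW119, and 410.0, 189.8 and 316 FPKM in LW82, LW88 and LW90. The groups overlapped, since LW82 lay between the 2 highest S-H pigs and only LW88 stood clearly below the others. The means were 371 ± 60.9 FPKM in S-H and 305 ± 110.5 FPKM in S-L (SD, n = 3), with a log2 fold change of 0.34 (SE 0.32, limma adjusted p = 0.802). Without LW88 it was 0.028.

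The table's MYH7 also took in a neighbour. Of its 10 transcripts, 4 lay in the RefSeq MYH7 locus and summed to between 180 and 403 FPKM over the pigs. Another 5 lay in the heart myosin heavy chain locus next to it and summed to between 9.57 and 17.1 FPKM, and 1 ran over both at no more than 0.0109 FPKM. In addition, 6 assembled transcripts named for a nearby gene, CMTM5, covered the MYH7 locus and ran on over the heart myosin locus. They held between 44.1 and 59.8 FPKM in the S-H pigs and between 19.5 and 44.8 FPKM in the S-L pigs. As only spans were compared, how much of this came from MYH7 is not known. Keeping only the MYH7 locus, or adding the CMTM5 transcripts, left MYH7 on the same side of every threshold.

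MYL2 encodes the slow regulatory light chain, which is phosphorylated to tune force, and had the highest level of the 10 genes (ENSSSCG00000039710, chromosome 14, 32196883 to 32213760). It measured 4553, 3771 and 3219 FPKM in LW63, LW70 and LW119, against 3756, 2481 and 2712 FPKM in LW82, LW88 and LW90. LW82 fell among the S-H pigs, while LW88 and LW90 were below all of them. On the log2 scale the difference was 0.38 (SE 0.33, limma adjusted p = 0.775).

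For MYL3, the slow essential light chain (ENSSSCG00000011325, chromosome 13, 29688777 to 29735701), the values were 867, 906.5 and 561 FPKM in LW63, LW70 and LW119, and 955, 551 and 627 FPKM in LW82, LW88 and LW90. The highest and the lowest pig were both S-L, and the groups overlapped throughout. The log2 fold change of 0.14 (SE 0.32, limma adjusted p = 0.928) was the smallest of the 10, and it was -0.024 without LW88.

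Troponin T anchors the troponin complex on tropomyosin, and TNNT1 is its slow form (ENSSSCG00000025353, chromosome 6, 59347582 to 59365589). TNNT1 measured 574, 496 and 415 FPKM in LW63, LW70 and LW119, and 396.5, 342 and 302 FPKM in LW82, LW88 and LW90. All S-H pigs were above all S-L pigs, with only a narrow gap between LW119 and LW82. The means of 495.1 ± 79.5 and 347 ± 47.3 FPKM (SD, n = 3) gave a log2 fold change of 0.51 (SE 0.25, limma adjusted p = 0.669).

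TNNI1 encodes the slow inhibitory subunit, which holds the filament closed at rest (ENSSSCG00000024061, chromosome 10, 23788279 to 23804083). Its FPKM was 469.5, 542 and 476.5 in LW63, LW70 and LW119, and 361, 332 and 416 in LW82, LW88 and LW90. The groups did not overlap, and both were tight, at 496 ± 40.1 and 369.9 ± 42.6 FPKM (SD, n = 3), a log2 fold change of 0.43 (SE 0.24, limma adjusted p = 0.681).

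TNNC1 encodes the calcium-binding subunit shared by slow and heart muscle (ENSSSCG00000011441, chromosome 13, 34591210 to 34594339). It was found at 3759, 3812 and 4077 FPKM in LW63, LW70 and LW119, and at 3477, 2225 and 2602 FPKM in LW82, LW88 and LW90. The 3 S-H pigs lay close together above all S-L pigs, of which LW82 was nearest to them. The means were 3883 ± 169.9 and 2768 ± 642 FPKM (SD, n = 3), and the log2 fold change was 0.51 (SE 0.31, limma adjusted p = 0.709).

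TPM3, the slow alpha-tropomyosin that lies along the actin filament (ENSSSCG00000006556, chromosome 4, 95542472 to 95572938), had the lowest p of the 10 genes. It measured 728, 642 and 474 FPKM in LW63, LW70 and LW119, and 431.5, 306 and 357 FPKM in LW82, LW88 and LW90. No S-L pig reached the lowest S-H pig, LW119. The means of 615 ± 129 and 365 ± 63.2 FPKM (SD, n = 3) gave a log2 fold change of 0.74 (SE 0.27, limma unadjusted p = 0.0234, adjusted p = 0.649). Leaving out 1 pig at a time moved the unadjusted limma p between 0.00652 (without LW119) and 0.0854 (without LW63), and with size factors it was 0.128.

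MYOZ2 (calsarcin-1), a Z-disc protein that binds calcineurin, was the only one of the 10 with a single transcript (ENSSSCG00000032838, chromosome 8, 104574430 to 104609328). Its values were 32.8, 41.5 and 54.3 FPKM in LW63, LW70 and LW119, and 26.6, 27.6 and 27.1 FPKM in LW82, LW88 and LW90. The S-L pigs were almost equal, and the S-H pigs were all above them but far from each other. This gave a log2 fold change of 0.63 (SE 0.24, limma unadjusted p = 0.0290, adjusted p = 0.653). The unadjusted limma p ranged from 0.0164 (without LW63) to 0.10 (without LW119) when a pig was left out, and was 0.129 with size factors.

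ATP2A2 encodes SERCA2, the calcium pump of slow fibres (ENSSSCG00000034386, chromosome 14, 31674757 to 31744973). Its level was 201, 198.5 and 129.8 FPKM in LW63, LW70 and LW119, and 191, 37.7 and 153 FPKM in LW82, LW88 and LW90. LW88 stood far below the other 5 pigs, which overlapped between the groups. The log2 fold change of 0.74 (SE 0.55, limma adjusted p = 0.743) came down to 0.015 without LW88.

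CASQ2, the calsequestrin of slow and heart muscle (ENSSSCG00000006745, chromosome 4, 104918501 to 104999787), was present at a trace level only. It was listed at 1.27, 1.41 and 3.14 FPKM in LW63, LW70 and LW119, and at 0.743, 1.73 and 0.532 FPKM in LW82, LW88 and LW90. LW119 was the highest pig and LW88 was second, above the other S-H pigs. The log2 fold change of 0.93 (SE 0.48, limma adjusted p = 0.677) was the largest of the 10 genes here, but it was 0.54 without LW119 and 1.37 without LW88. With a pseudocount of 1 it was 0.55, below TPM3 and ATP2A2.

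Some pigs, but not all, kept similar places across these genes. LW63 was the highest pig in 5 of 10 genes, and LW70 was among the top 3 in all 10. LW88 was the lowest in 7 genes and among the lowest 2 in 8, whereas LW82, also S-L, was among the top 3 in 4. The library of LW88 had the fewest genes above 0, 19250 against 19723 to 20559 in the others. The paper also lists for LW88 the fewest clean reads and the lowest percentage of mapped reads. Whether this bears on its low values was not tested. LW119 was mixed, with the highest level in 3 genes and a place among the lowest 2 in 3 others. Averaged over the 10 genes, the log2 level relative to each gene's mean was 0.31, 0.31 and 0.19 in LW63, LW70 and LW119, and 0.0055, -0.51 and -0.30 in LW82, LW88 and LW90. LW82 was therefore nearer to the S-H pigs than to LW88. The median of all genes on this scale was 0.15, -0.069 and 0.19 in the S-H pigs and 0.038, -0.062 and -0.27 in the S-L pigs, so that LW90 was low and LW63 and LW119 were high for genes in general. With size factors the averages of the 10 genes were 0.14, 0.38 and -0.019 in S-H and -0.037, -0.45 and -0.0092 in S-L, and LW70 and LW88 were then the pigs that stood apart.

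The 5 other genes whose profile over the 6 pigs came nearest to this average, among 9317 genes with a symbol and a mean of at least 1 FPKM, were CHP2, ST3GAL2, IL17D, APTX and NUMA1. Their root-mean-square difference from it was between 0.036 and 0.072 on the log2 scale. Among the 10 genes themselves TNNC1 was nearest, at 0.087, and CASQ2 was farthest, at 0.737.

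Each slow gene has a fast counterpart, and the share of the slow gene in the FPKM of a pair is free of library scaling. In 10 of 10 pairs the mean slow share was higher in S-H, but the S-L pig LW82 mostly lay among the S-H pigs. LW88 and LW90 had the 2 lowest shares in 8 of 10 pairs, and LW82 was above the lowest S-H pig in 8. Averaged over the 10 pairs, the slow share was 35.0%, 29.6% and 27.4% in LW63, LW70 and LW119, and 30.7%, 11.9% and 12.3% in LW82, LW88 and LW90. The group means were 30.7% ± 3.90 and 18.3% ± 10.8 (SD, n = 3), a difference of 12.4 percentage points. The groups overlapped (exact two-sided permutation p = 0.30, the smallest possible being 0.10). After adjustment over the 10 pairs, p by the exact permutation test was from 0.375 to 0.4. With 0.10 as the smallest exact p, no pair could have reached an adjusted p below 0.05, so this test cannot decide whether a pair differed.

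**Figure D3:**
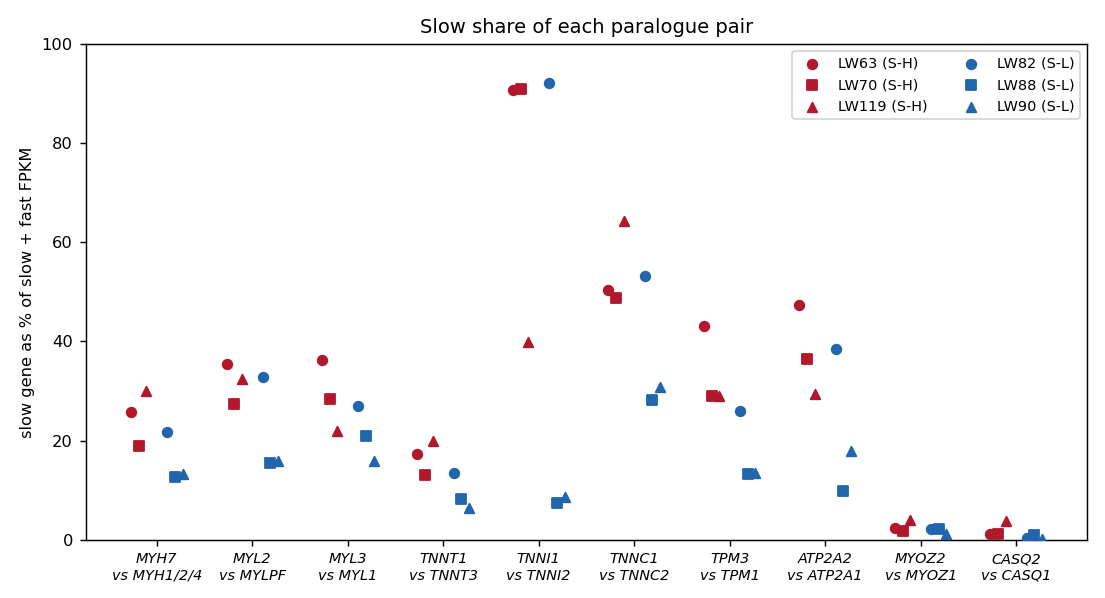
Slow gene as a percentage of the summed FPKM of the slow and the fast gene of each pair, in the 3 S-H pigs (red) and the 3 S-L pigs (blue). LW88 and LW90 had the 2 lowest shares in 8 of 10 pairs, while LW82 lay among the S-H pigs in most of them.

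For the heavy chains, MYH7 was 25.7%, 18.8% and 29.9% of the pair in LW63, LW70 and LW119, and 21.7%, 12.6% and 13.3% in LW82, LW88 and LW90. The fast genes MYH1, MYH2 and MYH4 were 1 merged gene in the table, so the share is against their sum. That gene was converted from TPM, so the MYH7 share, and with it the mean over all pairs, rests on the factor of each pig. MYL2 against the fast regulatory light chain MYLPF gave 35.5%, 27.3% and 32.5% in S-H, and 32.9%, 15.4% and 15.9% in S-L. In both pairs LW88 and LW90 were below all S-H pigs and LW82 was not. MYL3 against MYL1 stood at 36.2%, 28.4% and 21.9% in LW63, LW70 and LW119, and 27.02%, 20.9% and 15.8% in LW82, LW88 and LW90.

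Among the troponins, TNNC1 made up 50.3%, 48.8% and 64.3% of its pair with TNNC2 in LW63, LW70 and LW119, and 53.2%, 28.1% and 30.8% in LW82, LW88 and LW90. TNNT1 was the smaller part of its pair with TNNT3, with 17.4%, 13.1% and 19.9% in S-H and 13.4%, 8.24% and 6.38% in S-L. The low share of LW88 and LW90 thus appeared in each, beside an LW82 that was within the S-H range. TPM3 against TPM1 was 43.2%, 29.0% and 29.1% in LW63, LW70 and LW119 and 26.0%, 13.3% and 13.4% in LW82, LW88 and LW90, without overlap (exact permutation p = 0.10, adjusted p = 0.375).

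For the calcium pumps, ATP2A2 made up 47.4%, 36.5% and 29.5% of the sum with ATP2A1, the fast pump SERCA1, in LW63, LW70 and LW119. In LW82, LW88 and LW90 its share was 38.4%, 9.77% and 17.9%. The pair CASQ2 and CASQ1 was almost wholly CASQ1, with a CASQ2 share of 1.12%, 1.11% and 3.71% in the S-H pigs and 0.447%, 1.002% and 0.177% in the S-L pigs, which did not overlap (exact permutation p = 0.10, adjusted p = 0.375). MYOZ2 was between 1.25% and 3.96% of the pair with MYOZ1, and its groups overlapped.

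The pair of TNNI1 and TNNI2 needs a second reading. As booked, TNNI1 was 90.8%, 91.0% and 39.8% of the pair in LW63, LW70 and LW119, and 92.2%, 7.32% and 8.55% in LW82, LW88 and LW90. TNNI2, the fast inhibitory subunit, was listed at 47.7, 53.5 and 720.4 FPKM in the S-H pigs and at 30.6, 4209.5 and 4451 FPKM in the S-L pigs. An assembled transcript named for the neighbouring gene SYT8 covered the whole TNNI2 locus and held 794, 1045 and 232 FPKM in S-H and 481, 90.5 and 264 FPKM in S-L. The long spans of 2 transcripts of TNNT3 also ran over this locus, the higher of which stood at 134 FPKM in LW82 and 252 FPKM in LW88. Spans are compared here, not exons, so how much of any of these came from TNNI2 is not known. With the SYT8 transcript added to TNNI2, the TNNI1 share was 35.8%, 33.0% and 33.3% in LW63, LW70 and LW119, and 41.4%, 7.17% and 8.11% in LW82, LW88 and LW90. The order of LW82 above the S-H pigs and of LW88 and LW90 below them held in both readings, and the mean over the 10 pairs became 26.7% ± 2.86 in S-H and 16.6% ± 7.84 in S-L (SD, n = 3, exact permutation p = 0.20).

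**Figure D4:**
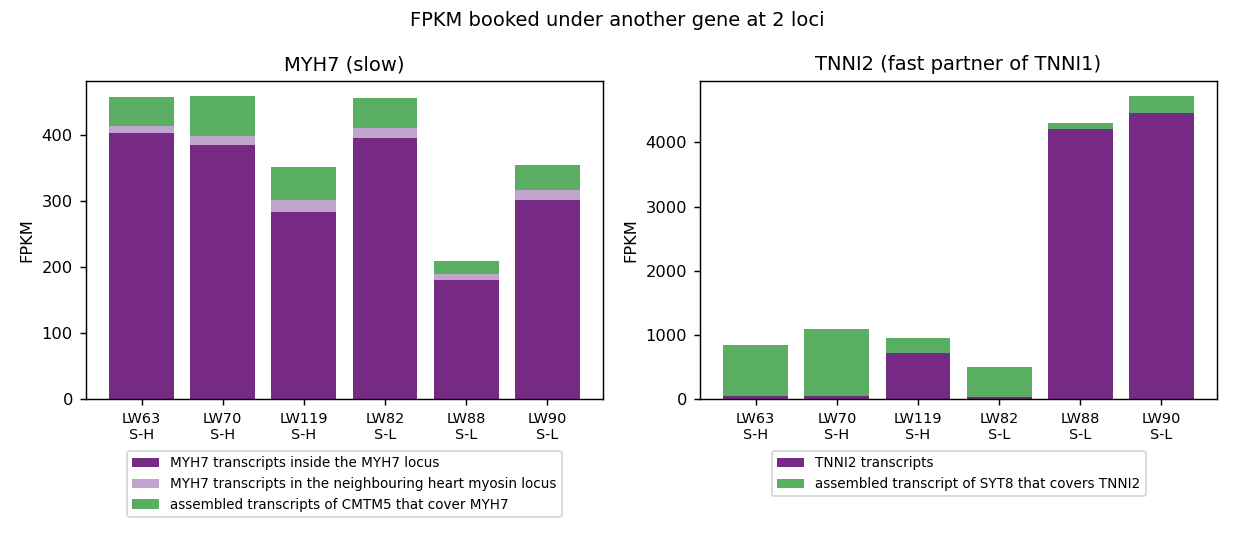
FPKM of transcripts at the MYH7 and TNNI2 loci in each pig, stacked by the gene under which the table lists them. At MYH7 the transcripts listed elsewhere added 19.5 to 59.8 FPKM, while at TNNI2 the SYT8 transcript held most of the FPKM in LW63, LW70 and LW82 but not in LW119, LW88 or LW90.

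On the fast side of the pairs no gene passed the thresholds, against 1.25% of all tested genes. The log2 fold change of S-H against S-L was below 0 for 9 of 10 fast partners, all but MYOZ1 at 0.10, and for 10 of 10 with size factors, which turned MYOZ1 to -0.10. MYOZ1 was also below 0 without LW70, LW82 or LW88. Their median was -0.52, beside 0.19 over all genes and 0.51 over the slow genes. CASQ1, taken here as the counterpart of CASQ2, was the only partner with an unadjusted limma p below 0.05. It was also the only one with every S-H pig below every S-L pig, where 2.06% of all genes had that order. It measured 112, 126 and 81.5 FPKM in LW63, LW70 and LW119, and 165.5, 170.5 and 299.8 FPKM in LW82, LW88 and LW90 (log2 fold change -0.96, SE 0.30, limma unadjusted p = 0.0116, adjusted p = 0.649).

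The 10 genes differed in how their FPKM was divided among transcripts. Of the 48 transcripts, 34 were above 0 in all 6 pigs, 9 in some pigs and 5 in none. MYH7-201 held 89.0% to 97.4% of MYH7, and TNNC1-201 held at least 99.9% of TNNC1. For MYL3, 98.4% to 99.9% lay in a transcript assembled by the authors at the RefSeq MYL3 locus, not in the 2 Ensembl transcripts. The light chain MYL2 was split in a fixed ratio, with 64.6% to 66.0% in MYL2-202, and TPM3 likewise, with 63.4% to 67.2% in TPM3-204 and 25.8% to 28.2% in TPM3-207.

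Other genes divided their FPKM differently from pig to pig. TNNI1-202 held 37.4%, 26.0% and 5.47% of TNNI1 in LW63, LW70 and LW119, and 2.19%, 29.0% and 0.153% in LW82, LW88 and LW90. TNNI1-204 held 21.0%, 13.6% and 51.2% in the S-H pigs and 57.6%, 10.7% and 32.9% in the S-L pigs. Both groups thus held pigs with a high share of each transcript, although the TNNI1 sum was even within groups. ATP2A2-202 was found in LW63, LW70 and LW82, at 27.6%, 9.15% and 30.0% of ATP2A2, and was listed at 0 in LW119, LW88 and LW90. ATP2A2-201, which held the rest, had the same span, and the transcripts of TNNI1 overlapped widely. How far these shares depend on the assignment of reads between overlapping transcripts was not tested.

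TNNT1-201 held 23.7%, 4.28% and 16.0% of TNNT1 in LW63, LW70 and LW119, and 3.06%, 5.32% and 1.97% in LW82, LW88 and LW90. Its level was 136, 21.2 and 66.4 FPKM in S-H and 12.1, 18.2 and 5.96 FPKM in S-L, without overlap (log2 fold change 2.39, SE 0.73, limma unadjusted p = 0.0145). The share itself overlapped, since LW70 was below LW88. CASQ2-202 ranged from 36.4% to 83.04% of CASQ2, a gene at trace level.

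**Figure D5:**
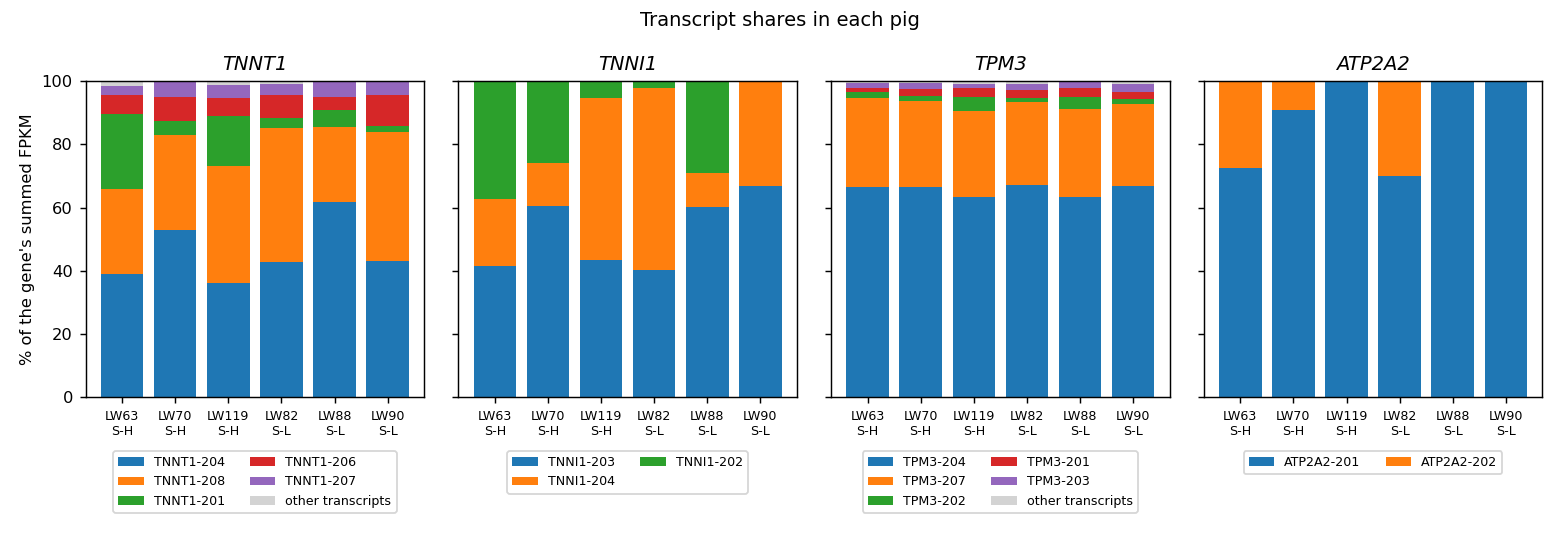
Share of each transcript in the summed FPKM of TNNT1, TNNI1, TPM3 and ATP2A2, 1 bar per pig, with minor transcripts of TNNT1 and TPM3 pooled in grey. TPM3 kept the same division in every pig, while TNNI1-202, TNNT1-201 and ATP2A2-202 differed between pigs of the same group.

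The share of the leading transcript was compared for the 9 genes with at least 2 transcripts above 0, and the adjusted p was between 0.787 and 1 by the exact permutation test. With 0.10 as the smallest exact p, no gene could have reached an adjusted p below 0.05, so this test cannot decide whether a share differed. The groups did not overlap in MYL3 alone, where the leading transcript held 98.8% ± 0.322 in S-H and 99.6% ± 0.480 in S-L (SD, n = 3, exact permutation p = 0.10). Of 40 transcripts tested, 1 passed the thresholds, where 1.25% of all 40336 tested transcripts did, and 7 had an unadjusted limma p below 0.05, against 5.57% of all. The transcript that passed was MYL3-202, at 0.684, 0.772 and 0.521 FPKM in LW63, LW70 and LW119 and 0.135, 0.0175 and 0.171 FPKM in LW82, LW88 and LW90 (log2 fold change 1.94, SE 0.50, limma adjusted p = 0.739). It made up at most 0.0928% of the gene, and its depth is unknown. MYL3-202 ran from 29699304 to 29733742, while the leading transcript lay between 29730074 and 29735701. The other assembled transcripts listed under MYL3 ended at 29716085 or earlier and did not reach the leading one. As only spans were compared, how much of these came from MYL3 is not known, and the leading share of MYL3 depends on them. No transcript of the 10 genes had an adjusted p below 0.05, where 0.0843% of all transcripts did.

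Listed partners of the slow-fibre genes, which are not all particular to slow fibres, showed no common difference. Of 12 listed partners, 9 were found and tested, and none passed. CSRP3, a Z-disc LIM protein, had the largest log2 fold change of them at 1.31 (SE 0.68, limma adjusted p = 0.677), with 81.4, 95.9 and 174 FPKM in LW63, LW70 and LW119 and 29.1, 155 and 19.5 FPKM in LW82, LW88 and LW90. ANKRD2, a stretch-responsive protein of slow fibres, followed at 1.17 (SE 0.63), and LMOD2, which extends thin filaments, at 0.56 (SE 0.29). In CSRP3 and ANKRD2 it was LW88 that was high within S-L, the pig in which most of the 10 slow genes were lowest. Without LW88 both passed, with log2 fold changes of 2.21 for CSRP3 and 1.91 for ANKRD2. The median over the list was 0.34, beside 0.19 over all genes.

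Around the calcium store, 10 of 13 listed sarcoplasmic reticulum genes were found, none passed, and their median log2 fold change was -0.035. Besides CASQ1, the largest differences were those of ATP2A1, at -0.55 (SE 0.35), and TRDN, the triadin that ties calsequestrin to the release channel, at -0.50 (SE 0.31), both with overlapping groups.

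Among 24 regulators of the slow and oxidative programme, all found, 1 passed the thresholds and was lower in S-H, against 0.318% of all genes, while the list's median was -0.24. The gene that passed was PPARGC1A, the coactivator PGC-1alpha, which drives mitochondrial and slow-fibre genes. It measured 10.01, 22.4 and 15.1 FPKM in LW63, LW70 and LW119, and 25.5, 76.0 and 43.7 FPKM in LW82, LW88 and LW90. All S-H pigs were below all S-L pigs, and the pig with the most PPARGC1A, LW88, had the least of 7 slow genes (log2 fold change -1.54, SE 0.43, limma unadjusted p = 0.00546, adjusted p = 0.639). It no longer passed without LW63, LW119, LW88 or LW90, where the limma p was 0.0115 to 0.0225, nor with TPM, where it was 0.0110. Nor did it pass with no minimum level or with no trend in the variance model, where no regulator did. An unadjusted limma p below 0.05 was reached by 1 regulator with a higher level in S-H, against 6.11% of all genes, and by 4 with a lower level, against 1.34%. The next 3 by size were NFATC2, a calcineurin-activated factor, at -1.02 (SE 0.36), VGLL2, a TEAD cofactor of muscle, at -0.95 (SE 0.28), and PPARGC1B at 0.74 (SE 0.31), all without overlap between the groups and without passing. With size factors NFATC2 (-1.21) and VGLL2 (-1.15) also passed, which made 3 regulators lower in S-H against 0.551% of all genes, and with the highest transcript alone NFATC2 turned to 0.21.

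Among the paralogues used by heart muscle, which could share reads with slow-fibre genes, the troponin and light chain genes were low. TNNT2 was between 0.237 and 1.44 FPKM, TNNI3 between 0.0338 and 0.539 FPKM, and MYL4 at most 0.190 FPKM. The tropomyosins of this list, which skeletal muscle also expresses, were abundant, with TPM1 between 958 and 2312 FPKM and TPM2 between 1428 and 3228 FPKM. None of the 4 tested genes passed.

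Markers of other cell types were read in the same pigs. Fat cell markers were higher in S-H: 5 of the 7 found passed the thresholds (ADIPOQ, PLIN1, FABP4, LEP and CIDEC), against 0.931% of all genes. With size factors 3 passed, PLIN1, LEP and CIDEC, against 0.582%, and with a pig left out 2 to 6 did, the 2 being without LW63 or without LW90. The summed level of the 7 genes was 444 to 1294 FPKM in S-H and 255 to 376 FPKM in S-L, with none at 0. The sums of the other lists overlapped, and none of their genes passed with all 6 pigs. They were 305 to 630.4 FPKM in S-H and 329.7 to 515 FPKM in S-L for 5 fibroblast markers, and 70.9 to 101 and 55.6 to 83.7 FPKM for 4 endothelial markers. For 4 smooth muscle markers the sums were 11.3 to 12.2 and 8.02 to 14.8 FPKM, and for 4 leukocyte markers 9.97 to 35.5 and 14.6 to 16.8 FPKM. The part of the fat cell markers in the slow-fibre values was not tested.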

How the data were processed

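The LD muscle of 3 S-H and 3 S-L pigs was sequenced with a library for each animal, and the replicates are therefore separate animals. As the study's methods state, the authors made strand-specific libraries depleted of ribosomal RNA, aligned filtered reads with HISAT2 to Sscrofa11.1 and assembled and quantified transcripts with StringTie. The deposited values are FPKM per transcript and pig. The values show that 21104 transcripts without a symbol were deposited in TPM, and these were multiplied by 1 factor per pig, between 0.639 and 0.847, solved from the table. No slow-fibre gene was among them, but the merged fast heavy chain gene (MYH1, MYH2 and MYH4) was. No counts entered, so that the depth behind each value is unknown and precision rests on the spread between pigs.

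FPKM were summed by gene identifier. The 16333 annotated genes with a mean of at least 0.1 FPKM were tested on log2(FPKM + 0.1), a scale that understates changes of low genes, with limma 3.58.1 in R 4.3.3 (trended variance), S-H against S-L. A gene passed at an unadjusted p below 0.01 with a log2 fold change of 1 or more in size, thresholds taken from the study, whose own test was made for counts. Adjusted p values (Benjamini-Hochberg) cover all genes tested. The fit was tested on simulated data. Slow shares and transcript shares were compared by exact two-sided permutation over the 20 labellings of the pigs, for which 0.10 is the smallest p, in Python 3.11.15.

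The 10 genes and all lists were chosen with earlier results of these data known. Named were all 10 genes, from each list every gene that passed and up to 3 others with the largest change, fast partners within their pair, and the 5 nearest profiles. Genes of the lists that no symbol, identifier table or RefSeq locus matched (MB, RYR1, PLN and others) were not analysed here. The heart myosin heavy chain was not analysed here as a gene of its own. Alternatives covered the pseudocount, the minimum, the scaling, the variance model, the gene value, the genes tested and each pig left out. After seeing the data, alternatives were added for MYH7, for TNNI2, for the pairs without TNNI1 and for RefSeq protein-coding symbols.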

Additional observations from a re-analysis of the deposited data

How the results depend on the processing

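No slow-fibre gene passed the thresholds under any scaling, minimum, pseudocount, variance model or gene value tried, nor without any 1 pig. Scaled by median-ratio size factors, the 10 genes had a median of 0.31 in place of 0.51 on the log2 scale, MYL3 turned to -0.066, and 0 genes kept every S-H pig above every S-L pig in place of 5. That count was 1 with quantile normalization, against 6.28% of all genes, and 3 when the highest transcript stood for each gene, against 11%. With TPM the count was 6, against 17.4%. It was between 5 and 7 with a pig left out, where the share of all genes was itself 14.1% to 24.3%, against 11.9% with all pigs. Size factors and quantile normalization also changed the split of all genes that passed, from 152 higher and 52 lower to 95 and 90, and to 85 and 107. With TPM it was 242 and 33. MYL3 was between -0.024 (without LW88) and 0.37 (without LW82), and the median of the 10 genes was between 0.36 (without LW88) and 0.61 (without LW82). For the slow shares, 2 pairs did not overlap, those of TPM3 and of CASQ2, a gene at trace level. With the highest transcript it was 4, and with a pig left out it was between 2 and 9, the 9 being without LW82 and 5 without LW70. The mean share difference was 9.14 to 18.6 percentage points with a pig left out, 18.6 being without LW82. Leading transcript shares without overlap numbered 1, and between 1 and 3 with a pig left out. It was 3 without LW70, and 2 without LW82, LW88 or LW90. No share over all genes was computed for these counts of pairs and of transcripts. Groups separate more readily with fewer pigs, as the share of all genes given above shows. Other values of the 10 genes and of the pairs kept their direction and their side of the threshold. Calls outside the 10 genes moved more. MYOZ1 was -0.10 with size factors and between -0.18 and 0.37 with a pig left out, and NFATC2 was 0.21 with the highest transcript. Over all alternatives 2 to 6 fat cell markers passed as higher and 0 to 3 regulators as lower in S-H. CASQ1 passed with quantile normalization, and with a pig left out so did COL3A1 (LW70), ACTA1 (LW119) and TNNT2, CSRP3 and ANKRD2 (LW88). The cause was not tested. No paired analysis was possible because the labels give no pairing between S-H and S-L pigs. Depth limits the reading of CASQ2 and of transcripts below 1 FPKM, for which no counting error can be given.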
